A study of Mus musculus with 21 samples.

Results

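RNA from Neuro2a cells that carried a guide RNA and the activator sadCas9-VP64 was compared with RNA from Neuro2a cells that carried the activator without a guide, at a similar summed level of transgene transcripts. The comparison held 6 of the 12 Neuro2a libraries, out of 21 libraries in the series. On its CRISPRa side stood the 3 CRISPRa libraries of library set 8 (replicates 4, 5 and 6), and on its control side the 3 VP64 only libraries of library set 7 (replicates 1, 2 and 3). The libraries were chosen by measured values, namely that the sum of the 2 transgene rows of the table, sadCas9Vp64 and McherryPuro, was close between these groups, so the transgene values below describe the choice and were not tested. The library set is the first number of the library names, and the labels do not say what it stands for. It differed between the groups, so guide and library set cannot be told apart within this comparison, called the crossed comparison here.

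Neuro2a is a mouse neuroblastoma line, and the cells of all groups carried sadCas9-VP64, so none of the groups was free of transgene. Set 8 CRISPRa and set 7 CRISPRa cells had received 750 ng of each plasmid, whereas set 7 VP64 only and set 8 VP64 only cells had received the sadCas9-VP64 plasmid alone. The labels give neither the time after transfection nor a filler plasmid for the controls, and they do not say whether replicates were separate cultures, so p-values measure the spread between these libraries, which may be technical. The remaining 6 Neuro2a libraries, 3 set 7 CRISPRa and 3 set 8 VP64 only, shared no library with the crossed comparison and formed its mirror, in which the guide had the same sign and the library set the opposite sign.

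In CRISPR activation, a nuclease-dead Cas9 fused to the VP64 activator is brought by a guide RNA to a gene's promoter, here that of Scn2a, the gene of the neuronal sodium channel Nav1.2. Plasmid DNA and foreign RNA in transfected cells can be detected by innate sensors, which induce interferon. Interferon signals through Jak kinases and Stat factors, and the resulting complex with Irf9 binds interferon-stimulated response elements in the promoters of antiviral genes. Hypoxia-inducible factors act on another element and raise glycolytic enzymes and collagen hydroxylases when oxygen is low.

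The transgene transcripts were close in sum and unlike in make-up. The sum was 2138, 2284 and 2559 CPM (counts per 1000000 counts of the library) in set 8 CRISPRa libraries, against 2505, 2646 and 2498 CPM in set 7 VP64 only libraries, a ratio of means of 0.913. The sadCas9Vp64 row alone had 564, 604 and 632 CPM in set 8 CRISPRa libraries, against 2505, 2646 and 2498 CPM in set 7 VP64 only libraries, a ratio of 0.235. The McherryPuro row had 1574, 1680 and 1927 CPM in set 8 CRISPRa libraries and was listed at 0 in all set 7 VP64 only libraries. In the mirror, the sum was 7273 ± 843 CPM in set 7 CRISPRa libraries and 349 ± 27.5 CPM in set 8 VP64 only libraries (SD, n = 3 each), a ratio of 20.8. The crossed comparison therefore matched the summed transgene RNA, but not the amount of sadCas9-VP64, the presence of the mCherry-puromycin transcript or the library set.

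**Figure D1:**
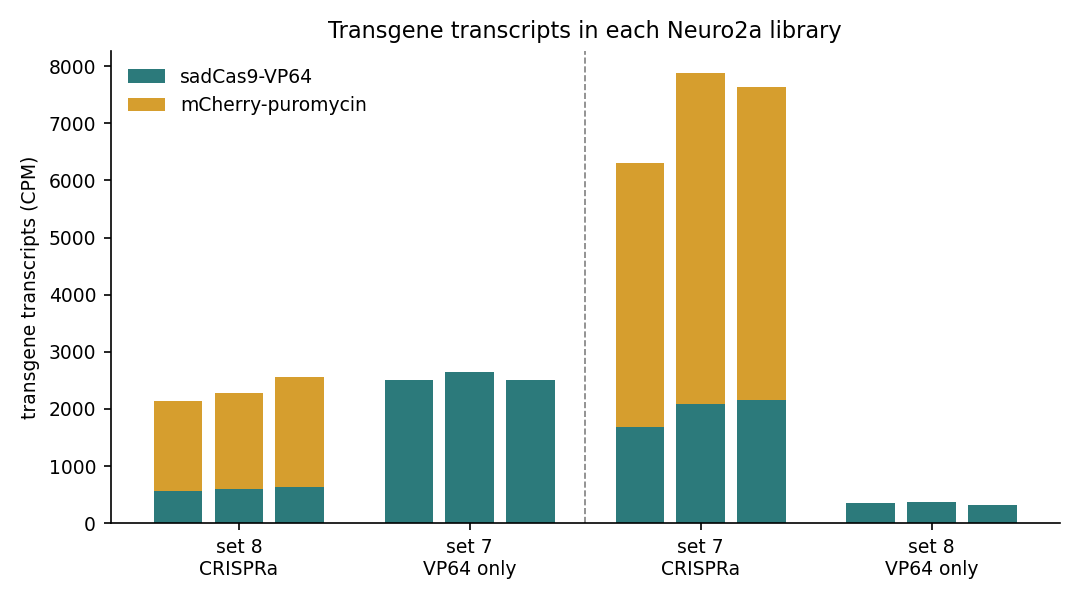
Stacked transgene CPM in each Neuro2a library, with sadCas9-VP64 below and mCherry-puromycin above. The dashed line separates the crossed comparison on the left, with sums of 2138 to 2559 CPM in set 8 CRISPRa and 2498 to 2646 CPM in set 7 VP64 only, from the mirror on the right.

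Depth, read as the inverse of the most frequent value above 0, was 15.5 to 15.9 M reads (M, 1000000) in set 8 CRISPRa, 16.0 to 17.1 M in set 7 VP64 only, 16.7 to 18.0 M in set 7 CRISPRa and 15.8 to 21.0 M in set 8 VP64 only libraries. Transcripts listed for the sympathetic origin of the line ranged widely in level. Of 23 measured, Ret reached the highest value, and 3 stayed under 1 CPM in all Neuro2a libraries. Ret averaged 1170 ± 92.3 CPM in set 8 CRISPRa and 1214 ± 53.5 CPM in set 7 VP64 only libraries (SD, n = 3 each). Tyrosine hydroxylase (Th) averaged only 1.98 CPM in set 8 CRISPRa and 2.18 CPM in set 7 VP64 only libraries. Of the marker lists for other cell types, the highest values in any Neuro2a library were 19.1 CPM for the fibroblast marker Pdgfra, 8.98 CPM for the endothelial marker Pecam1, 4.61 CPM for the oligodendrocyte marker Mbp and 1.32 CPM for the macrophage marker Cd68. The summed fibroblast markers were 14.9 to 17.3 CPM in set 8 CRISPRa and 18.4 to 20.9 CPM in set 7 VP64 only libraries, and the summed macrophage markers 1.30 to 2.78 CPM in set 8 CRISPRa and 1.41 to 1.84 CPM in set 7 VP64 only libraries. The fibroblast collagen gene Col1a2 had 3.34, 1.74 and 1.92 CPM in set 8 CRISPRa libraries, against 3.56, 3.46 and 5.33 CPM in set 7 VP64 only libraries, and 15.1, 14.2 and 12.8 CPM in set 7 CRISPRa libraries, against 1.57, 1.97 and 2.84 CPM in set 8 VP64 only libraries. Of the 4 tested fibroblast markers none rose and 1 fell in the crossed comparison, and 1 rose and 2 fell in the mirror. Of all genes tested, 21.4% rose and 21.4% fell in the crossed comparison, and 36.8% rose and 21.4% fell in the mirror. The part of other cells in the results was not tested.

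Sequences of promoters that the results turn on were taken from RefSeq (build GRCm38.p6, 250 bases before to 50 bases after the annotated start), each written in the sense of its gene. They show the gene the guide was made for, 3 interferon-stimulated genes and 2 targets of hypoxia-inducible factors. Capitals mark matches to GAAA followed, after 2 bases of any kind, by another GAAA, the letters searched for the interferon-stimulated response element, in Rsad2 (chr12:26456403-26456702, minus strand), Oas3 (chr5:120777610-120777909, minus strand) and Gbp2 (chr3:142620413-142620712, plus strand). In P4ha2 (chr11:54100674-54100973, plus strand) and Aldoc (chr11:78322823-78323122, plus strand, 1 of 2 starts in the table) they mark ACGTG, the core of the hypoxia response element, which is also part of the E-box. Both strands were searched, so that a match may read TTTC, 2 bases and TTTC, or CACGT. The Scn2a starts (chr2:65620519-65620818, plus strand and chr2:65668436-65668735, plus strand) hold neither motif and are printed without capitals, and the position of the guide within the gene is not given in the sources used here.
Scn2a, upstream start: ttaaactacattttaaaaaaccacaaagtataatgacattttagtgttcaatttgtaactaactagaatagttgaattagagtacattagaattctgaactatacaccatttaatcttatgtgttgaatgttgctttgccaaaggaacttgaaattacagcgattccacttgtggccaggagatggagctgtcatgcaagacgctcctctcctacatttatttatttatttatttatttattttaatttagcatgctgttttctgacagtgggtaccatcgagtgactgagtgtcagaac
Scn2a, downstream start: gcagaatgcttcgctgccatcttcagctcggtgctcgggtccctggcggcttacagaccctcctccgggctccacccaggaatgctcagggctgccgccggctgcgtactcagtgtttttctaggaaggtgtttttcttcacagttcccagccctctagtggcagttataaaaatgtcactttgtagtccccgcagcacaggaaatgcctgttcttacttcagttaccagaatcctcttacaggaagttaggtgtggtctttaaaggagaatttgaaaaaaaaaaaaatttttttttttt
Rsad2: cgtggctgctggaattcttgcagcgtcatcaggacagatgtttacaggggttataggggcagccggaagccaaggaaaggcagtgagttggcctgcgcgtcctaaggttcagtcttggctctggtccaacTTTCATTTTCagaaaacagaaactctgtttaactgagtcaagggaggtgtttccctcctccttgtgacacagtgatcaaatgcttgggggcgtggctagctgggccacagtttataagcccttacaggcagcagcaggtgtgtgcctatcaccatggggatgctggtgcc
Oas3: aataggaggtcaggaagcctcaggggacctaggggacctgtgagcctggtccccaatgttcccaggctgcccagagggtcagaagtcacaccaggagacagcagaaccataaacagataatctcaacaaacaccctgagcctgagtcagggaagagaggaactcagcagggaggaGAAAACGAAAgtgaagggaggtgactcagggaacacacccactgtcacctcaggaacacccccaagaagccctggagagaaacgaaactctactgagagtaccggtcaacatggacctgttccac
Gbp2: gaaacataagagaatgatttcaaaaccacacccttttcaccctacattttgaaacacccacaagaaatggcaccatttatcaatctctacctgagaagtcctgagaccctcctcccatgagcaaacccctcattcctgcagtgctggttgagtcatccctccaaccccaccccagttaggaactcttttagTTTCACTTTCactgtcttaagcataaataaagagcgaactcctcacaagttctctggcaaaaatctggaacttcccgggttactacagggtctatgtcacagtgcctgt
P4ha2: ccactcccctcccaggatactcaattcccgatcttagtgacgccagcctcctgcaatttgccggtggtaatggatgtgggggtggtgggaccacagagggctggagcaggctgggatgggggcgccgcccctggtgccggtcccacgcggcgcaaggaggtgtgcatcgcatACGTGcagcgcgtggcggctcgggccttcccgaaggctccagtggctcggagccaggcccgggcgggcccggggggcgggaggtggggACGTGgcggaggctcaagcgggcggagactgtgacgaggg
Aldoc: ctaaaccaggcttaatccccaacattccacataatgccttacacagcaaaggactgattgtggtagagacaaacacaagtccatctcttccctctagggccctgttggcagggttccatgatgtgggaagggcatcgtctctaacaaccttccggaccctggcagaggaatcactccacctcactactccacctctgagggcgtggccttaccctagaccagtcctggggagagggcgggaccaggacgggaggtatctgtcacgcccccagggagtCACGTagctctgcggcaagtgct

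The response element letters were found in 3.44% of the 32851 promoters of the table and in 3.70% of the 10197 tested genes with a sequence. It was found in 12 of 30 interferon-stimulated antiviral genes, 4 of 6 OAS and RNase L genes and 10 of 11 guanylate-binding and immunity-related GTPases with a sequence. ACGTG was found in 19.6% of all promoters and 29.1% of tested genes, against 14 of 20 hypoxia-inducible factor genes and 13 of 21 glycolysis genes. These matches describe letters in a window and are not evidence of binding.

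Scn2a was higher in every set 8 CRISPRa library than in any set 7 VP64 only library, but its change did not pass the threshold in the crossed comparison. Its levels were 4.09, 5.02 and 4.10 CPM in set 8 CRISPRa libraries, against 3.18, 3.46 and 2.84 CPM in set 7 VP64 only libraries. The log2 change was 0.42 ± 0.17 (SE, adjusted p = 0.0634, n = 3 each), from a limma fit of log2(CPM + 0.5) over 15293 genes with Benjamini-Hochberg adjustment and a threshold of 0.05. Changes on this scale understate those of low genes. An exact two-sided permutation test of the same libraries gave p = 0.1, the smallest that 3 against 3 allows. The libraries held only 47 to 78 Scn2a reads each, which limits the precision. A pseudocount of 2 brought the limma value past the threshold (0.31, adjusted p = 0.0496), as did a fit of all 12 libraries with 4 groups (0.42, adjusted p = 0.0341).

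In the mirror, Scn2a had 4.53, 4.56 and 5.33 CPM in set 7 CRISPRa libraries, against 2.86, 3.05 and 3.16 CPM in set 8 VP64 only libraries. There it rose by 0.59 ± 0.16 on the log2 scale (limma, adjusted p = 0.00474). The difference between the crossed and the mirror change was -0.17 (limma, adjusted p = 0.534), so the 2 changes did not differ beyond the spread between libraries. Their mean, in which the library set is balanced, was 0.50 ± 0.11 (limma, adjusted p = 0.000862). The mean does not balance the transgene sum, whose ratio was 0.913 in the crossed comparison and 20.8 in the mirror. The McherryPuro row was read only on the guide side of both, and its part in the rise was not tested. In these bulk libraries, more Scn2a per cell and more cells that express it cannot be told apart.

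Other sodium channel genes of the neuronal family, each of which encodes a pore-forming subunit, were set beside Scn2a. Scn3a, the neighbouring channel gene, changed by 0.46 in the crossed comparison (adjusted p = 0.138, or 0.046 without CRISPRa set 8 replicate 6) and fell by 0.83 in the mirror (adjusted p = 0.00335). Scn8a and Scn9a changed by 0.05 and -0.05 in the crossed comparison, with adjusted p of 0.63 and 0.603, where 42.8% of all genes passed. In the mirror Scn9a rose by 0.39 (adjusted p = 0.000251), with 45.9, 41.2 and 47.5 CPM in set 7 CRISPRa libraries, against 36.1, 35.7 and 30.9 CPM in set 8 VP64 only libraries, and its mean change over both comparisons was 0.17 (adjusted p = 0.0131). Scn8a rose by 0.16 in the mirror (adjusted p = 0.0398), a call that was lost in 7 of 13 alternatives, with 0.05 and 0.04 after median-of-ratios and quantile scaling.

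Around Scn2a on its chromosome, 4 of 13 tested genes rose and 1 fell in the crossed comparison, and 4 rose and 7 fell in the mirror. Over all genes, 21.4% rose and 21.4% fell in the crossed comparison, and 36.8% rose and 21.4% fell in the mirror. Galnt3, a mucin-type glycosyltransferase gene, had 33.9, 35.4 and 36.0 CPM in set 8 CRISPRa libraries, against 19.7, 17.9 and 14.1 CPM in set 7 VP64 only libraries. In the mirror the direction was the other way, with 13.2, 10.9 and 13.7 CPM in set 7 CRISPRa libraries and 41.4, 40.3 and 36.0 CPM in set 8 VP64 only libraries. Its log2 changes were 1.02 ± 0.10 and -1.60 ± 0.10 (limma, adjusted p = 1.65e-06 and 1.46e-10). Fign, which encodes a microtubule-severing enzyme, fell by 0.88 in the crossed comparison (adjusted p = 2.97e-07) and rose by 0.25 in the mirror (adjusted p = 0.00285), a rise that missed the threshold under both other scalings (0.14, adjusted p = 0.0804, and 0.12, adjusted p = 0.119). Cobll1 and Ttc21b rose by 0.67 and 0.23 in the crossed comparison (adjusted p = 0.0113 and 0.0126). Cobll1 missed the threshold without VP64 set 7 replicate 3 (0.52, adjusted p = 0.0515), and Ttc21b without CRISPRa set 8 replicate 6 (0.18, adjusted p = 0.0728) or VP64 set 7 replicate 2 (0.18, adjusted p = 0.0694). Both missed it when genes with low values were kept (adjusted p = 0.0836 for Cobll1 and 0.118 for Ttc21b). Ifih1, also in this interval, is the interferon-inducible RNA sensor MDA5 and rose in both comparisons, by 0.49 and 1.55.

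Across all genes, 6540 of 15293 passed the limma threshold in the crossed comparison, 42.8% of those tested, with 3271 higher (21.4%) and 3269 lower (21.4%). The groups did not overlap in 52.0% of genes. Over all genes tested the median size of the change was 0.23 on the log2 scale, and 317 of the genes past the threshold were at least 2-fold higher and 166 at least 2-fold lower. When genes with low values were kept, 2159 genes were higher. In the mirror, 8900 genes passed (58.2%), 5623 higher (36.8%) and 3277 lower (21.4%), and the groups did not overlap in 63.5% of genes. That mirror split depended on the scaling, with 4332 higher and 4379 lower after median-of-ratios scaling and 4308 higher and 4358 lower after quantile scaling, and the median of all genes in the mirror was 0.11 as deposited. List medians below are therefore given relative to the median of all genes tested. Counts of list members past the threshold are to be read beside the shares of all genes given here.

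A small share of genes moved the same way in both sets of libraries. Of the 3271 genes higher in the crossed comparison, 827 (25.3%) were also higher in the mirror, 1323 (40.4%) were lower and 1121 (34.3%) did not pass. Of the 3269 genes lower in the crossed comparison, 494 (15.1%) were also lower in the mirror, 1876 (57.4%) were higher and 899 (27.5%) did not pass. In all, 1321 genes (8.64% of those tested) passed in the same direction and 3199 (20.9%) passed in opposite directions. The McherryPuro row was read only on the guide side of both comparisons. Guide and mCherry-puromycin transcript thus cannot be told apart in same-direction changes, nor library set and transgene load in opposite changes. The difference between the comparisons, which adds set 8 minus set 7 over both treatments, passed for 8914 genes (58.3%, with 24.0% positive and 34.3% negative). Their mean, in which the set is balanced but the transgene sum is not, passed for 6904 (45.1%, with 28.5% higher and 16.6% lower). Both splits depended on the scaling. The difference was positive for 3667 and negative for 5247 genes as deposited, but positive for 4377 and negative for 4346 after median-of-ratios and for 4314 and 4418 after quantile scaling. The mean was higher for 4358 and lower for 2546 genes as deposited, but higher for 3188 and lower for 3580 after median-of-ratios and for 3115 and 3440 after quantile scaling. Within each treatment the set 8 libraries also held less transgene RNA than the set 7 libraries, so library set and transgene load cannot be told apart in that difference.

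**Figure D2:**
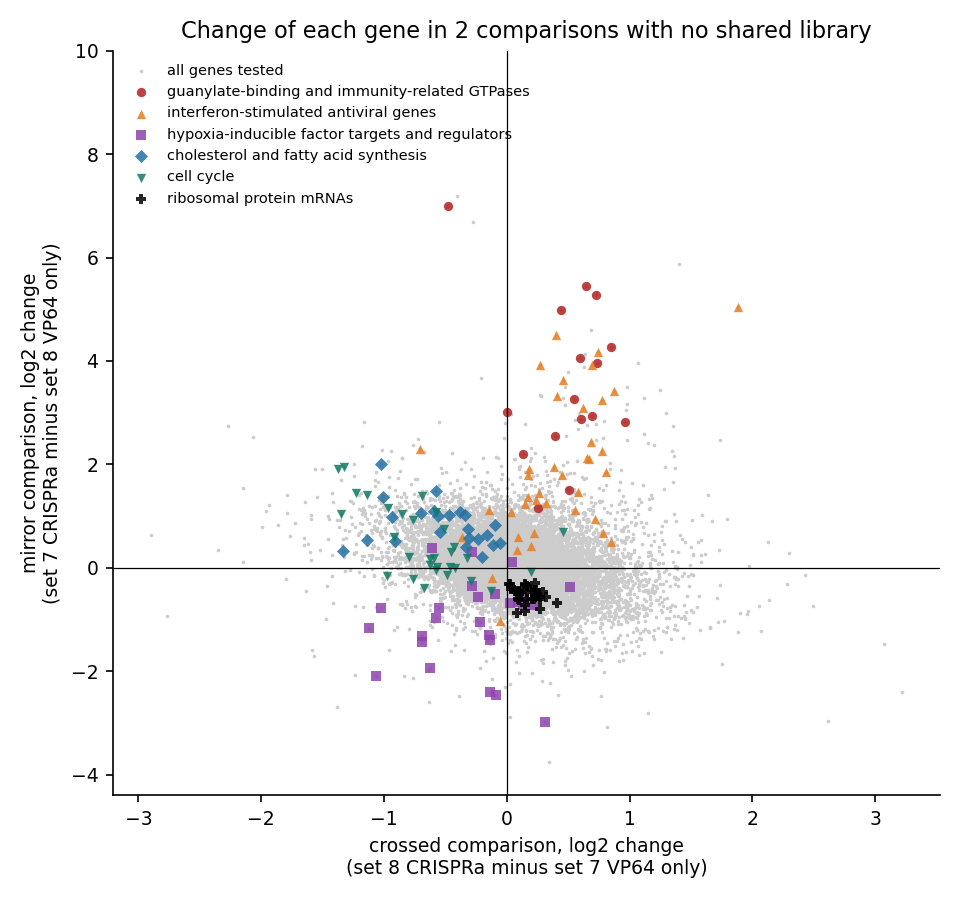
Log2 change of each tested gene in the crossed comparison (set 8 CRISPRa minus set 7 VP64 only, x axis) and in the mirror (set 7 CRISPRa minus set 8 VP64 only, y axis), with 6 gene lists marked. Interferon-stimulated genes lie mostly above the horizontal line and right of the vertical line, cholesterol and fatty acid synthesis genes lie upper left and ribosomal protein mRNAs lower right.

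Interferon-stimulated genes were higher in set 8 CRISPRa than in set 7 VP64 only libraries. The sadCas9Vp64 row, the McherryPuro row and the library set differed between these groups, and their part in the rise was not tested. Of 39 tested interferon-stimulated antiviral genes, 30 rose and 2 fell, with a median of 0.39 above all genes. In the mirror 37 rose and 2 fell, with a median of 1.68. Rsad2, whose product viperin makes a chain-terminating nucleotide against viruses, had 485, 453 and 465 CPM in set 8 CRISPRa libraries, against 284, 280 and 306 CPM in set 7 VP64 only libraries. It rose by 0.69 ± 0.04 (limma, adjusted p = 1.87e-08). In the mirror it had 856, 781 and 812 CPM in set 7 CRISPRa and 159, 144 and 148 CPM in set 8 VP64 only libraries, so the 4 groups did not overlap.

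Other members of the list behaved alike to different degrees. Ifit2, an RNA-binding antiviral protein, had 175, 164 and 169 CPM in set 8 CRISPRa libraries, against 99.9, 90.1 and 99.6 CPM in set 7 VP64 only libraries. Ifi44l rose most among the genes of the whole table that passed in both comparisons under the naming rule, with 7.87, 13.1 and 13.6 CPM in set 8 CRISPRa libraries, against 2.31, 1.93 and 4.18 CPM in set 7 VP64 only libraries (1.88 ± 0.24, adjusted p = 1.73e-05). The helicase genes Helz2 and Znfx1 rose by 0.85 and 0.72 in the crossed comparison and by 0.50 and 0.94 in the mirror. For Helz2 the crossed change was larger than the mirror change, by 0.35 (adjusted p = 0.0015). The 2 that fell in the crossed comparison were Ifi27l2a, by 0.71 (adjusted p = 0.00278), and Parp9, by 0.14, and both rose in the mirror, by 2.29 and 1.11.

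Sensors of foreign nucleic acid rose less uniformly, with 8 of 15 tested genes higher and 2 lower in the crossed comparison. Those were 53.3 and 13.3%, beside 21.4% of all genes in each direction, and the median was 0.13 above all genes. In the mirror 14 (93.3%) were higher and 1 (6.67%) lower, beside 36.8 and 21.4% of all genes, with a median of 0.87. Zbp1, which senses left-handed RNA and DNA, had 17.9, 22.2 and 24.9 CPM in set 8 CRISPRa libraries, against 7.30, 7.38 and 8.84 CPM in set 7 VP64 only libraries. It rose by 1.40 ± 0.13 (limma, adjusted p = 6.19e-07). Ddx60, an RNA helicase of the same response, rose by 1.12 ± 0.12. Sting1, the adaptor of cytosolic DNA sensing, rose by 0.80 in the crossed comparison and fell by 0.36 in the mirror, while Cgas, which encodes the DNA sensor upstream of it, fell by 0.41 and rose by 0.98. The DNA sensor Aim2 and the RNA-activated kinase Eif2ak2 changed by -0.23 and -0.02 in the crossed comparison, with adjusted p of 0.161 and 0.799.

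Among the OAS and RNase L genes, some of whose products make the activator of RNase L, 5 of 8 tested rose and none fell in the crossed comparison. All 8 rose in the mirror. Oas3 had 127, 156 and 160 CPM in set 8 CRISPRa libraries, against 60.1, 54.3 and 72.1 CPM in set 7 VP64 only libraries, a rise of 1.25 ± 0.09 (limma, adjusted p = 7.95e-08). Oas1a and Oas1g did not follow, with changes of -0.04 and -0.21 (adjusted p = 0.652 and 0.179). Oas1 genes are near-identical copies and reads may have been split among them. Of the 16 tested guanylate-binding and immunity-related GTPases, which attack the membranes of intracellular pathogens, 12 rose and none fell in the crossed comparison, with a median of 0.56 above all genes, and all 16 rose in the mirror, with a median of 3.04. Gbp2 had 8.18, 10.6 and 9.79 CPM in set 8 CRISPRa libraries, against 4.80, 4.81 and 5.51 CPM in set 7 VP64 only libraries, and 33.7, 30.9 and 37.7 CPM in set 7 CRISPRa libraries, against 1.91, 1.02 and 1.07 CPM in set 8 VP64 only libraries. Its changes were 0.85 ± 0.14 and 4.27 ± 0.17. Iigp1 changed by -0.48 in the crossed comparison (adjusted p = 0.0576) and rose by 7.0 in the mirror, with means of 176 CPM in set 7 CRISPRa and 0.871 CPM in set 8 VP64 only libraries.

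Of 19 tested interferon receptor and signalling genes, 13 (68.4%) were higher and 2 (10.5%) lower in the crossed comparison, beside 21.4% of all genes in each direction. In the mirror 10 (52.6%) were higher and 4 (21.1%) lower, beside 36.8% of all genes higher and 21.4% lower. The list medians were 0.22 and 0.06 above all genes. Stat2, the gene of a transcription factor that carries the interferon signal, changed by -0.08 in the crossed comparison (adjusted p = 0.394) and rose by 2.14 in the mirror. Irf1 rose in both, with 75.0, 73.9 and 79.4 CPM in set 8 CRISPRa libraries, against 43.3, 48.9 and 49.4 CPM in set 7 VP64 only libraries. Irf5, an interferon regulatory factor downstream of Toll-like receptors, had 12.7, 14.2 and 14.7 CPM in set 8 CRISPRa libraries, against 3.62, 4.63 and 4.96 CPM in set 7 VP64 only libraries. It rose by 1.56 in the crossed comparison and by 0.49 in the mirror (limma, adjusted p = 6.19e-07 and 0.00227), a difference of 1.06 (adjusted p = 6.01e-05). Irf2 and Jak2 rose by 0.63 and 0.36 in the crossed comparison and fell by 0.16 and 0.38 in the mirror. The mirror fall of Irf2 missed the threshold without CRISPRa set 7 replicate 1 (-0.14, adjusted p = 0.0582) or VP64 set 8 replicate 5 (-0.13, adjusted p = 0.0842).

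MHC class I and antigen processing genes, which display peptides to T cells and which interferon also induces, changed in few cases in the crossed comparison. Of 20 tested genes 4 rose and 2 fell, beside the 21.4% of all genes that rose and the 21.4% that fell, whereas 19 rose and none fell in the mirror. B2m, the light chain of class I molecules, averaged 452 CPM in set 8 CRISPRa and 439 CPM in set 7 VP64 only libraries, against 602 CPM in set 7 CRISPRa and 285 CPM in set 8 VP64 only libraries. H2-K1, a class I heavy chain gene, had 380, 385 and 454 CPM in set 8 CRISPRa libraries, against 460, 446 and 522 CPM in set 7 VP64 only libraries, groups that overlapped. Its change of -0.23 (adjusted p = 0.0127) missed the threshold without CRISPRa set 8 replicate 4 (-0.18, adjusted p = 0.0522), CRISPRa set 8 replicate 5 (-0.19, adjusted p = 0.0693) or VP64 set 7 replicate 3 (-0.16, adjusted p = 0.0685), and when genes with low values were kept (adjusted p = 0.278). H2 class I genes are similar in sequence and share reads.

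**Figure D3:**
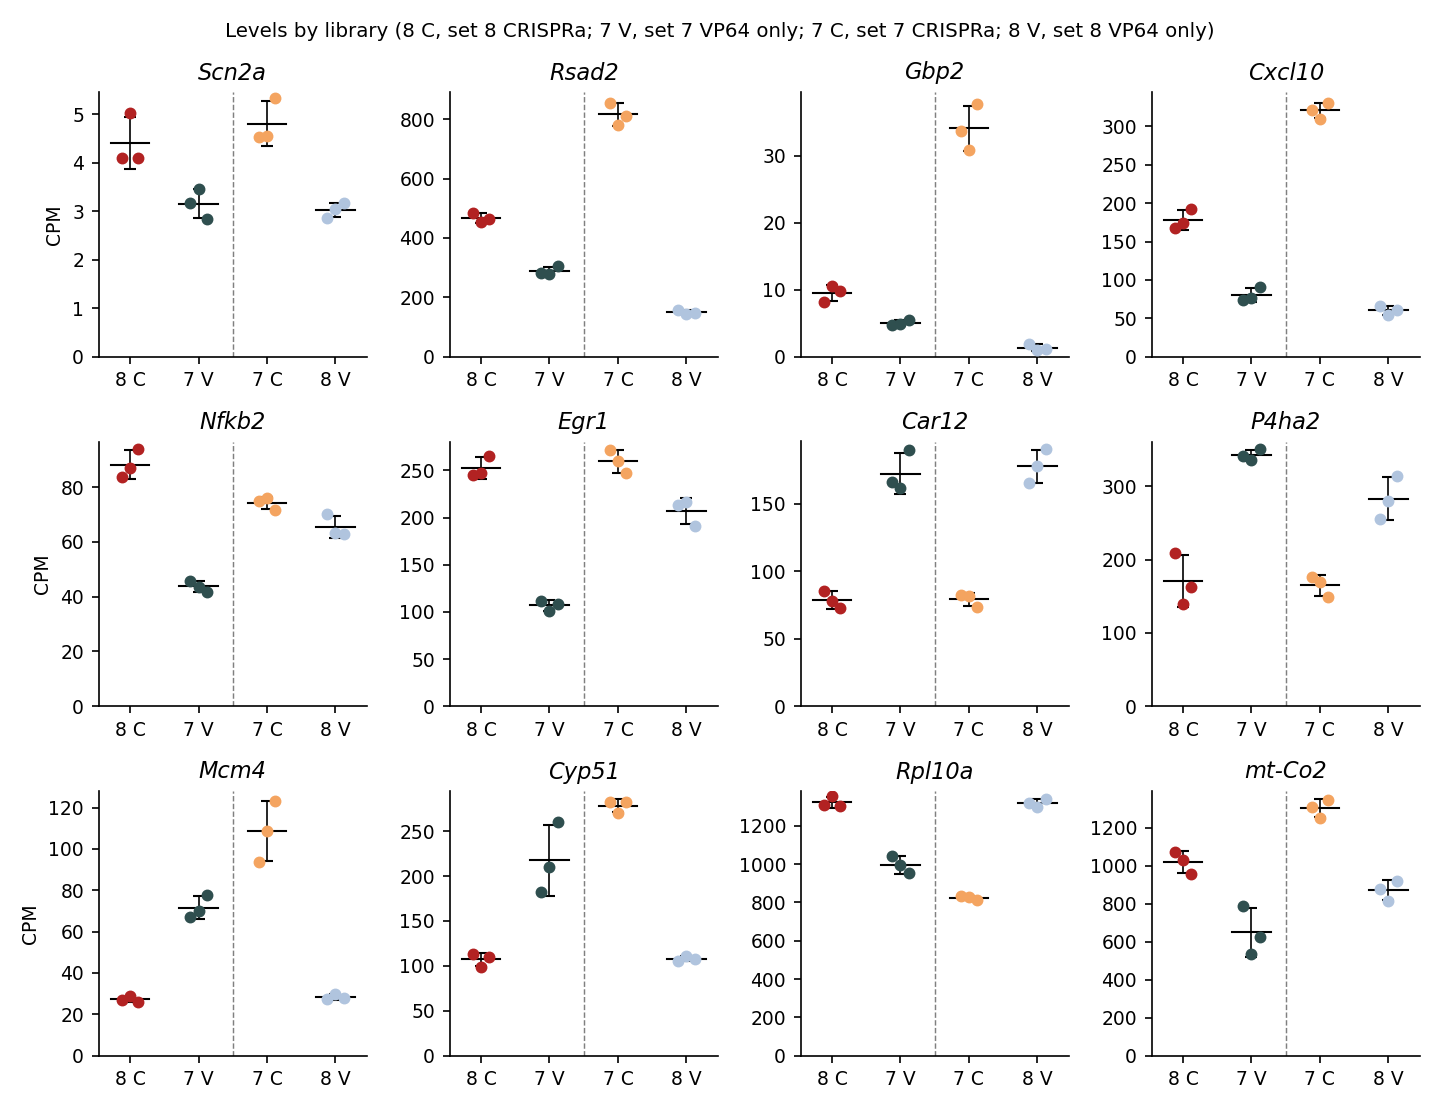
CPM of 12 genes in each Neuro2a library, with the mean and SD of 3 libraries as bars. In each panel the crossed comparison (set 8 CRISPRa, then set 7 VP64 only) is left of the dashed line and the mirror (set 7 CRISPRa, then set 8 VP64 only) right of it; Rsad2, Gbp2 and Cxcl10 are higher with the guide on both sides, while Mcm4, Cyp51 and Rpl10a turn round.

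Chemokines and NF-kappaB genes had the highest median of the 25 lists in the crossed comparison, 0.70 above all genes, with 12 of 16 tested genes higher and 1 lower. In the mirror 11 rose and 1 fell, with a median of 0.24. Cxcl10, a chemokine that attracts T cells, had 168, 175 and 192 CPM in set 8 CRISPRa libraries, against 73.8, 76.0 and 90.8 CPM in set 7 VP64 only libraries, and rose by 1.15 ± 0.07 (limma, adjusted p = 1.16e-08). Ccl5, a chemokine induced by Irf3 and NF-kappaB, rose by 1.36 ± 0.11 in the crossed comparison and 1.05 ± 0.12 in the mirror. Their difference was 0.31 (adjusted p = 0.0982). The pathway genes Nfkb2 and Relb rose more in the crossed comparison than in the mirror. Nfkb2, which encodes the p100 precursor, had 83.8, 87.0 and 94.1 CPM in set 8 CRISPRa libraries, against 45.9, 43.7 and 41.6 CPM in set 7 VP64 only libraries, and its partner Relb had 32.5, 31.0 and 36.3 CPM in set 8 CRISPRa libraries, against 16.3, 15.1 and 14.6 CPM in set 7 VP64 only libraries. The rises were 1.01 and 1.09 in the crossed comparison (adjusted p = 7.92e-09 and 1.39e-07). In the mirror Nfkb2 changed by 0.18 and Relb by 0.06, values that scaling changed to 0.07 and -0.05 after median-of-ratios and to 0.08 and -0.10 after quantile scaling. The difference between the comparisons was 0.82 for Nfkb2 and 1.02 for Relb (adjusted p = 3.56e-08 and 2.01e-06).

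Immediate early genes, which stimuli such as growth factors induce within minutes, rose in 19 of 26 tested cases and fell in 1 in the crossed comparison. Those were 73.1 and 3.85%, beside 21.4% of all genes in each direction, and the median was 0.62 above all genes. In the mirror 19 rose and 3 fell, 73.1 and 11.5% beside 36.8 and 21.4% of all genes, with a median of 0.28. Egr1, a zinc finger factor, had 245, 247 and 266 CPM in set 8 CRISPRa libraries, against 112, 101 and 108 CPM in set 7 VP64 only libraries. It rose by 1.24 ± 0.05 in the crossed comparison and by 0.33 ± 0.05 in the mirror (limma, adjusted p = 2.93e-10 and 2.36e-05). Klf6 rose by 0.98 in the crossed comparison and by 0.81 in the mirror, a difference of 0.17 (limma, adjusted p = 0.0265). Egr3 averaged 4.17 CPM in set 8 CRISPRa and 0.461 CPM in set 7 VP64 only libraries, a rise of 2.30 ± 0.22, and changed by 0.28 in the mirror (adjusted p = 0.16). Dusp6, a phosphatase that restrains Erk signalling, had 809, 751 and 795 CPM in set 8 CRISPRa libraries, against 455, 425 and 439 CPM in set 7 VP64 only libraries, and fell in the mirror by 0.34. Nr4a3 fell by 0.58 in the crossed comparison and rose by 0.85 in the mirror.

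Targets and regulators of hypoxia-inducible factors were lower with the guide in both comparisons. Of 26 tested genes, 3 rose and 14 fell in the crossed comparison, 53.8% lower beside 21.4% of all genes, and 3 rose and 22 fell in the mirror. Car12, a carbonic anhydrase gene, had 85.8, 78.1 and 72.7 CPM in set 8 CRISPRa libraries, against 166, 161 and 190 CPM in set 7 VP64 only libraries. In the mirror it had 82.3, 82.0 and 73.3 CPM in set 7 CRISPRa libraries, against 166, 178 and 190 CPM in set 8 VP64 only libraries. It fell by 1.12 ± 0.07 and 1.16 ± 0.06 on the log2 scale (limma, adjusted p = 7.88e-09 and 1.26e-11), and the difference was 0.04 (adjusted p = 0.749). The CRISPRa groups overlapped each other, as did the VP64 only groups. P4ha2, a collagen prolyl hydroxylase gene, had 209, 139 and 163 CPM in set 8 CRISPRa libraries, against 341, 335 and 350 CPM in set 7 VP64 only libraries, and fell by 1.02 in the crossed comparison and by 0.78 in the mirror, a difference of -0.25 (adjusted p = 0.136).

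Other genes of this group were lower on the guide side to unequal extents or not at all. Bnip3, a mitophagy receptor gene, averaged 72.9 CPM in set 8 CRISPRa and 151 CPM in set 7 VP64 only libraries, and fell by 1.07 in the crossed comparison and by 2.09 in the mirror. Plod2, a collagen lysyl hydroxylase gene, fell by 0.57 and 0.97. Plod1, which acts in the same step, fell by 0.61 in the crossed comparison but rose by 0.38 in the mirror. Vegfa, the angiogenic growth factor gene, rose by 0.21 in the crossed comparison and fell by 0.72 in the mirror. Hif1a itself changed by 0.04 in the crossed comparison (adjusted p = 0.41).

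Glycolysis genes fell in 9 of 22 tested cases (40.9%) and rose in 3 (13.6%) in the crossed comparison, beside 21.4% of all genes in each direction. In the mirror 18 (81.8%) fell and 1 (4.55%) rose, beside 21.4% of all genes lower and 36.8% higher. Relative to all genes the medians were -0.16 and -0.96, and leaving out a library in turn moved the crossed median between -0.28 and -0.07. Pdk1, the kinase that holds pyruvate back from the mitochondrion, had 23.7, 18.6 and 18.6 CPM in set 8 CRISPRa libraries, against 39.9, 36.8 and 42.7 CPM in set 7 VP64 only libraries, and fell by 0.96 ± 0.10 and, in the mirror, by 1.59 ± 0.08. Aldoc, an aldolase gene, had 29.6, 17.1 and 22.3 CPM in set 8 CRISPRa libraries, against 58.9, 56.0 and 69.3 CPM in set 7 VP64 only libraries. It fell by 1.43 ± 0.14 (limma, adjusted p = 1.17e-06) and changed by -0.16 in the mirror (adjusted p = 0.163). Under both other scalings the mirror value of Aldoc passed, at -0.27 (adjusted p = 0.0205) and -0.30 (adjusted p = 0.0203), as it did without CRISPRa set 7 replicate 1 (-0.25, adjusted p = 0.0325). The glucose transporter gene Slc2a1 rose by 0.46 in the crossed comparison and fell by 1.49 in the mirror.

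Mitochondrially encoded mRNAs were higher with the guide in both comparisons, with 10 of 13 rising and none falling in the crossed comparison and 11 rising and none falling in the mirror. The shares that rose were 76.9% in the crossed comparison, beside 21.4% of all genes, and 84.6% in the mirror, beside 36.8%. mt-Co2, a cytochrome c oxidase subunit, had 1075, 1030 and 959 CPM in set 8 CRISPRa libraries, against 789, 537 and 624 CPM in set 7 VP64 only libraries, a rise of 0.67 ± 0.10 (limma, adjusted p = 4.9e-05, or 0.0623 when genes with low values were kept). The change in the mirror was 0.58 ± 0.05 and the difference 0.09 (adjusted p = 0.572). All mitochondrially encoded features together took 1.24 ± 0.156% of CPM in set 8 CRISPRa and 0.887 ± 0.104% in set 7 VP64 only libraries, and 1.43 ± 0.0512% in set 7 CRISPRa and 0.979 ± 0.0611% in set 8 VP64 only libraries (SD, n = 3 each). The part of RNA quality in this shift was not tested.

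Ribosomal protein mRNAs turned round between the comparisons. Of 33 genes tested, 22 rose and none fell in the crossed comparison, whereas all 33 fell in the mirror, with medians of 0.15 and -0.58 relative to all genes. The 22 were 66.7% of the list, beside 21.4% of all genes higher, and in the mirror 21.4% of all genes fell. Rpl10a had 1310, 1355 and 1303 CPM in set 8 CRISPRa libraries, against 1045, 994 and 952 CPM in set 7 VP64 only libraries, and 834, 829 and 815 CPM in set 7 CRISPRa libraries, against 1320, 1297 and 1340 CPM in set 8 VP64 only libraries. Both set 8 groups thus lay above both set 7 groups for this gene. The difference between the comparisons passed for all 33 genes. Ribosomal protein genes have many processed pseudogenes with which reads may be shared.

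The cell cycle list had the lowest median of the 25 lists in the crossed comparison, with 28 of 31 tested genes lower and 2 higher and a median of -0.64 relative to all genes. In the mirror 19 rose and 5 fell, with a median of 0.09. Mcm4, a subunit of the replicative helicase, had 26.9, 28.7 and 26.1 CPM in set 8 CRISPRa libraries, against 67.0, 69.9 and 77.8 CPM in set 7 VP64 only libraries, and 93.8, 109 and 123 CPM in set 7 CRISPRa libraries, against 27.4, 29.9 and 27.9 CPM in set 8 VP64 only libraries. It fell by 1.37 ± 0.07 in the crossed comparison and rose by 1.91 ± 0.08 in the mirror (limma, adjusted p = 1.92e-09 and 9.4e-13). Set 8 libraries lay together at a low level, whichever treatment they had received. Of the whole list, 18 genes passed in opposite directions and 5 in the same direction. Mcm5 (-1.23 and 1.45), Rrm2 (-1.35 and 1.04) and Cdc6 (-1.33 and 1.95) were among the 18. Kif11, a spindle motor gene, and Top2a, a topoisomerase gene, fell in both, Kif11 by 0.97 and 0.16 and Top2a by 0.68 and 0.39. Ccnd1, the cyclin of early G1, rose in both, by 0.46 and 0.68.

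Cholesterol and fatty acid synthesis genes reversed as a block. Of 23 tested genes, none rose and 19 fell in the crossed comparison, with a median of -0.48 relative to all genes, and all 23 rose in the mirror, with a median of 0.63. Cyp51, a sterol demethylase gene, had 113, 98.6 and 109 CPM in set 8 CRISPRa libraries, against 182, 210 and 260 CPM in set 7 VP64 only libraries, and 282, 270 and 282 CPM in set 7 CRISPRa libraries, against 105, 111 and 108 CPM in set 8 VP64 only libraries. Scd2, a fatty acid desaturase gene, fell by 1.33 ± 0.07 in the crossed comparison and rose by 0.32 ± 0.04 in the mirror. Srebf1, which encodes a transcription factor of lipid synthesis, fell by 1.14 and rose by 0.53. The difference between the comparisons passed for all 23 genes and was negative for each.

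**Figure D4:**
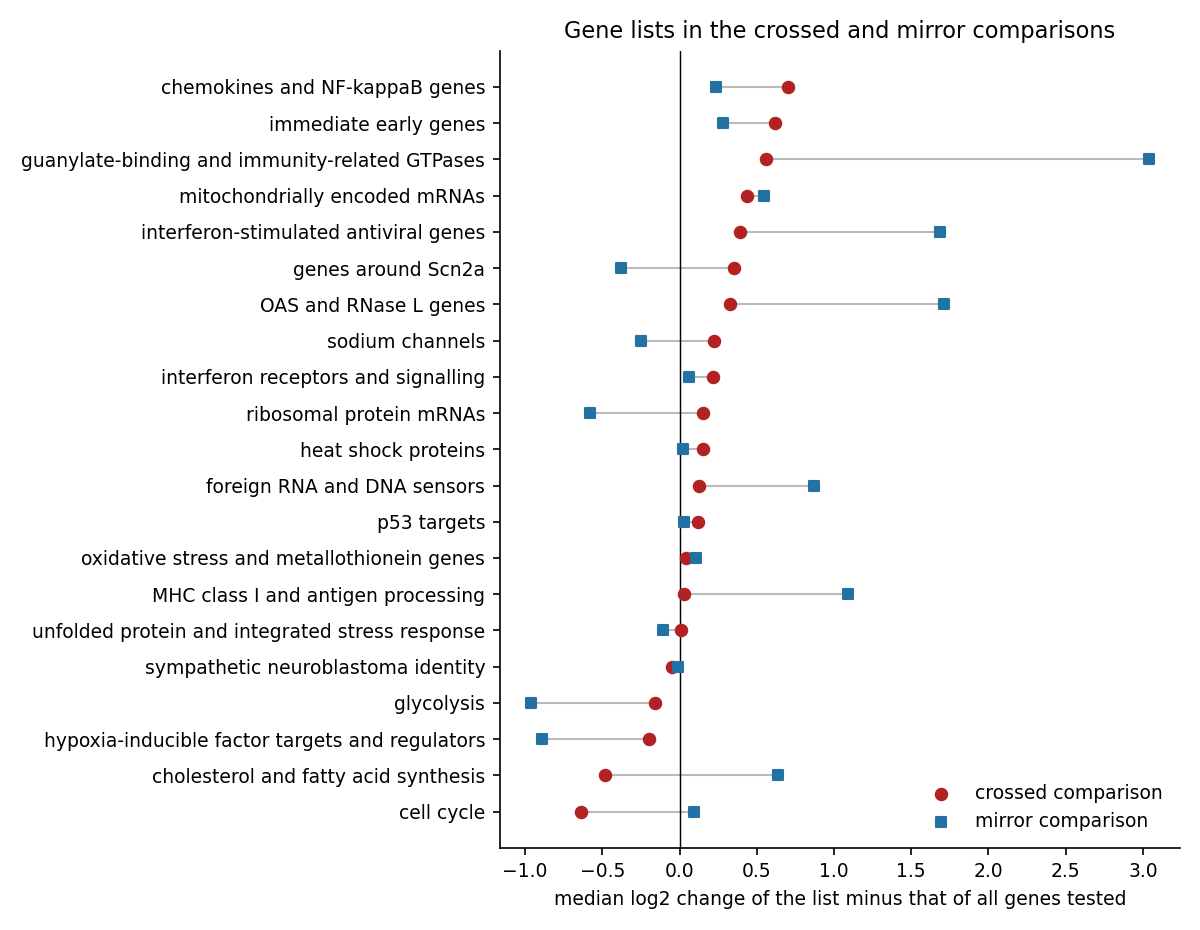
Median log2 change of each gene list relative to that of all genes tested, in the crossed comparison (circles) and in the mirror (squares). Lists of interferon-stimulated genes lie right of 0 in both and further right in the mirror, hypoxia-inducible factor and glycolysis genes lie left of 0 in both, and cholesterol, cell cycle and ribosomal protein lists lie on opposite sides.

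Stress lists were mixed. Heat shock protein genes rose in 10 of 15 tested cases and fell in 1 in the crossed comparison, where the chaperone gene Hspa8 had 2564, 2513 and 2618 CPM in set 8 CRISPRa libraries, against 1842, 1834 and 1709 CPM in set 7 VP64 only libraries (0.52 ± 0.05, adjusted p = 4.47e-07). In the mirror 8 heat shock genes rose and 4 fell, 53.3 and 26.7% beside 36.8 and 21.4% of all genes. Hsph1 rose by 0.48 in the crossed comparison and by 0.69 in the mirror. Hspa8 fell by 0.15 in the mirror as deposited and rose by 0.39 after quantile scaling (adjusted p = 4.9e-07), and its fall was lost when genes with low values were kept (adjusted p = 0.0682). Among oxidative stress genes 4 of 14 (28.6%) rose and 2 (14.3%) fell in the crossed comparison, close to the 21.4% of all genes in each direction. In the mirror 8 (57.1%) rose and 1 (7.14%) fell, beside 36.8 and 21.4% of all genes. Srxn1, which repairs oxidised peroxiredoxins, rose by 1.42 ± 0.10 in the crossed comparison and by 0.55 ± 0.07 in the mirror. Among p53 targets 7 of 14 rose and 3 (21.4%) fell in the crossed comparison, beside 21.4% of all genes in each direction. In the mirror 6 p53 targets rose and 4 fell, beside 36.8% of all genes higher and 21.4% lower. The cell cycle inhibitor gene Cdkn1a rose by 0.45 in the crossed comparison and by 0.73 in the mirror. Zmat3, an RNA-binding protein gene, had 74.0, 76.0 and 78.1 CPM in set 8 CRISPRa libraries, against 167, 173 and 171 CPM in set 7 VP64 only libraries, and fell by 1.16. In the mirror Zmat3 averaged 77.8 CPM in set 7 CRISPRa and 86.3 CPM in set 8 VP64 only libraries. That change was -0.15 (limma, adjusted p = 0.0517) and passed in 7 of 13 alternatives. The difference between the comparisons was -1.01 (limma, adjusted p = 1.71e-09). Of 25 unfolded protein and integrated stress response genes, 6 rose and 3 fell in the crossed comparison, shares of 24.0 and 12.0% beside the 21.4% of all genes in each direction. In the mirror 9 rose and 12 fell, 36.0 and 48.0% beside 36.8 and 21.4% of all genes. The mirror median relative to all genes was -0.11 as deposited and 0.08 after quantile scaling.

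Of the genes that mark sympathetic neuroblastoma cells, 7 of 20 rose and 6 fell in the crossed comparison, beside 21.4% of all genes in each direction. In the mirror 7 of the 20 rose and 5 fell, beside 36.8% of all genes higher and 21.4% lower. Dbh, which encodes the enzyme that makes noradrenaline, had 17.1, 12.6 and 14.3 CPM in set 8 CRISPRa libraries, against 42.7, 43.8 and 49.2 CPM in set 7 VP64 only libraries, and fell by 1.60 ± 0.10 (limma, adjusted p = 1.5e-08). It changed by 0.15 in the mirror (adjusted p = 0.157) and by -0.02 there after quantile scaling. Chgb, a secretory granule protein gene, rose by 1.14 and fell by 0.64 in the mirror. Ret, the receptor for the glial-derived neurotrophic factor family, changed by -0.06 (adjusted p = 0.444).

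Among all tested genes, 709 rose and 459 fell in both comparisons with an average of at least 2 CPM and groups that did not overlap in the crossed comparison. The largest rises after Ifi44l were in Rab17, a small GTPase of membrane traffic, Cxcl2, a neutrophil chemokine, and Thbs1, the matrix protein thrombospondin 1, by 1.73, 1.67 and 1.64. Thbs1 had 9.13, 6.89 and 7.76 CPM in set 8 CRISPRa libraries, against 2.31, 1.99 and 2.30 CPM in set 7 VP64 only libraries, and rose by 1.41 in the mirror. Phlda1, Egr2, Irf5 and the cytokine gene Lif followed with rises of 1.59, 1.58, 1.56 and 1.5. The rise of Rab17 in the mirror, 0.34, missed the threshold under both other scalings (0.23, adjusted p = 0.116, and 0.18, adjusted p = 0.227) and without CRISPRa set 7 replicate 2 (0.31, adjusted p = 0.0741), CRISPRa set 7 replicate 3 (0.34, adjusted p = 0.0522) or VP64 set 8 replicate 5 (0.21, adjusted p = 0.137), and when genes with low values were kept (adjusted p = 0.16). That of Lif, 0.41, missed it after quantile scaling (0.23, adjusted p = 0.0659) and when genes with low values were kept (adjusted p = 0.0696).

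The largest falls in both were in Armh4, Igfbp5, Cyp2s1 and Selenbp1, by 1.79, 1.64, 1.59 and 1.57 in the crossed comparison, followed by Nt5dc2, Matn3, Lsamp and Tet1 with falls of 1.46, 1.41, 1.23 and 1.17. Igfbp5, a binding protein of insulin-like growth factors, had 98.6, 80.9 and 86.1 CPM in set 8 CRISPRa libraries, against 279, 276 and 272 CPM in set 7 VP64 only libraries. Cyp2s1, a cytochrome P450 gene, fell by 1.59 in each comparison and Selenbp1, a selenium-binding protein gene, by 1.57 and 1.70. The difference between the comparisons was -0.00 and 0.13 (adjusted p = 0.998 and 0.772). It adds the set differences of both treatments, which went opposite ways here, since Cyp2s1 averaged 4.45 CPM in set 8 CRISPRa and 3.03 CPM in set 7 CRISPRa libraries, but 10.2 CPM in set 8 VP64 only and 13.3 CPM in set 7 VP64 only libraries. Their falls in the crossed comparison missed the threshold when genes with low values were kept (adjusted p = 0.0648 and 0.0688). Tet1, a DNA demethylase gene, had 2.46, 3.22 and 3.20 CPM in set 8 CRISPRa libraries, against 6.80, 8.67 and 6.48 CPM in set 7 VP64 only libraries. Armh4 fell by 0.22 in the mirror, where its groups overlapped (adjusted p = 0.0489), and this call was lost in 8 of 13 alternatives, with adjusted p of up to 0.26.

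Under the same limits, 1116 genes rose and 1742 fell in the crossed comparison while going the other way in the mirror, and some of these changes were larger. Nnat, the imprinted gene of neuronatin, had 99.1, 73.4 and 106 CPM in set 8 CRISPRa libraries, against 364, 384 and 483 CPM in set 7 VP64 only libraries, and 326, 344 and 306 CPM in set 7 CRISPRa libraries, against 101, 119 and 113 CPM in set 8 VP64 only libraries. Id2, an inhibitor of basic helix-loop-helix factors, fell by 2.07 and rose by 2.54. Tk1, the S phase thymidine kinase, fell by 1.93 and rose by 1.22, and Hdac9 and Lrrc17 fell by 1.96 and 2.90 and rose by 1.10 and 0.64. The mirror rise of Lrrc17 missed the threshold without VP64 set 8 replicate 4 (0.50, adjusted p = 0.0549) and when genes with low values were kept (adjusted p = 0.0984). In the other direction Cish, a suppressor of cytokine signalling, had 21.3, 19.7 and 20.7 CPM in set 8 CRISPRa libraries, against 3.74, 3.98 and 3.75 CPM in set 7 VP64 only libraries, and fell by 0.31 in the mirror. That fall of Cish was lost without CRISPRa set 7 replicate 2 (-0.29, adjusted p = 0.0555) or VP64 set 8 replicate 4 (-0.27, adjusted p = 0.0653). Ahnak2, Rapgef3 and Prokr1 rose by 2.49, 1.96 and 1.88 and fell by 0.74, 0.84 and 1.24, the fall of Ahnak2 being lost when genes with low values were kept (adjusted p = 0.113). Rps2-ps13, a ribosomal pseudogene that may share reads with its parent, had 1.55, 5.09 and 5.92 CPM in set 8 CRISPRa libraries and was listed at 0 in the set 7 VP64 only libraries.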

How the data were processed

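Polyadenylated RNA of Neuro2a cells was sequenced, and the authors' deposited table gives CPM (counts per 1000000 counts of a library) per gene and library, per the file headers. STAR 2.7.8a, featureCounts, DESeq2 1.44, R 4.4 and the builds mm39 and GRCm39 are named in the submitters' processing notes, without their roles. The CPM values came out as whole reads (within 0.01 of a read) for 70.8 to 73.2% of genes, too few for a count test, so log2(CPM + 0.5) was fitted with limma 3.58.1 (lmFit, eBayes with trend) in R 4.3.3. The filter asked for 0.5 CPM or more in 3 or more of the 12 Neuro2a libraries, which 15293 genes passed, without the 2 transgene rows, with Benjamini-Hochberg adjustment and a threshold of 0.05. The crossed and mirror comparisons were each fitted on their own 6 libraries. Their difference and mean came from a fit of 4 groups. The 9 libraries of sorted cortical nuclei were not used here. Library groups came from the sample labels and library sets from the library names.

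The members and the 25 gene lists were chosen with earlier results of these data known, so no list p-value is given and lists are described by counts beside those of all genes. Named genes were Scn2a, sodium channels and genes around Scn2a past the threshold in either comparison, and, of genes past in both in the same direction, the 8 that rose most and the 8 that fell most with at least 2 CPM on average and groups that did not overlap. The 5 with the largest change of each direction among genes past in opposite directions and up to 4 genes with the smallest p of each list were added, and further list members named in the text were chosen after their values were seen. All of these rankings used the crossed comparison, which favours crossed changes larger than mirror changes among the genes picked. Alternatives were 2 other scalings, pseudocounts of 0.1 and 2, no filter, a filter in 6 libraries, each library left out in turn and the fit of 4 groups. Figures were drawn with matplotlib 3.10.9. The fits were tested on simulated data. Some genes that the naming rule would name are not reported here.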

Additional observations from a re-analysis of the deposited data

Results flagged for a closer look

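The change in the crossed comparison minus that in the mirror was tested in the fit of 4 groups for 29 named genes. They were named for their place around Scn2a, their being sodium channels, or a same-direction change in both comparisons. The difference passed the threshold for 22 of them, beside 58.3% of all genes tested. Among genes of the Scn2a region and sodium channels the difference was 2.62 for Galnt3, 1.55 for Grb14, 1.28 for Scn3a, 0.89 for Csrnp3, 0.88 for Cobll1, 0.85 for Ttc21b and 0.33 for B3galt1. It was -1.13 for Fign, -1.06 for Ifih1 and -0.44 for Scn9a.

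Among the genes that rose in both comparisons, the difference was -3.16 for Ifi44l, which thus rose more in the mirror. It was 1.39 for Rab17, 1.09 for Lif, 1.06 for Irf5, 1.05 for Egr2, 0.77 for Cxcl2 and 0.57 for Phlda1, which rose more in the crossed comparison. Among the genes that fell in both, it was -1.58 for Armh4, -1.19 for Igfbp5, -1.11 for Nt5dc2, -0.73 for Matn3 and -0.49 for Lsamp, which fell more in the crossed comparison. The adjusted p of these limma tests lay between 9.31e-12 (Galnt3) and 0.0136 (Cxcl2). The genes that rose or fell in both were picked by the size of their crossed change. That choice favours larger crossed than mirror changes among them. Library set and transgene load both differ along this difference and cannot be told apart.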

How the results depend on the processing

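No paired analysis was possible because the compared groups carry replicate numbers 4 to 6 on one side and 1 to 3 on the other, and none is shared. The count of genes past the threshold in the crossed comparison was 5556 to 5976 with a library left out and 4407 without a filter, where 2159 were higher. In the mirror it was 8181 to 8480 with a library left out. Scaling moved the share of higher calls in the mirror to 49.7% under both alternatives, against 63.2% as deposited, and the cause was not tested. Scn2a in the crossed comparison ran from 0.33 to 0.48 with a library left out (adjusted p over all alternatives 0.0341 to 0.198), and passed at 0.31 with a pseudocount of 2 and at 0.42 in the fit of 4 groups. Depth limits it to 47 to 96 reads a library.

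List medians in the crossed comparison that moved beyond the spread were those of interferon-stimulated genes (0.32 to 0.47 with a library left out), immediate early genes (0.63 to 0.71, and 0.72 with a pseudocount of 0.1), chemokines (0.59 with a pseudocount of 2), and, after quantile scaling, cell cycle genes (-0.56) and p53 targets (0.17). In the mirror, a pseudocount of 2 gave 1.57 for interferon-stimulated genes, 0.74 for sensors, 2.77 for GTPases and 1.02 for MHC genes, and a pseudocount of 0.1 gave 3.56 for GTPases, 1.19 for MHC genes and -1.0 for hypoxia genes. Quantile scaling gave 1.79 for OAS genes, -0.68 for glycolysis, 0.78 for mitochondrial mRNAs, -0.34 for ribosomal proteins, 0.37 for heat shock proteins, 0.68 for cholesterol synthesis and 0.21 for oxidative stress. It turned the stress response (0.0816) and sympathetic identity (0.0707) lists to positive. Leaving out a library gave mirror ranges of 0.75 to 0.94 for sensors, 1.08 to 1.15 for MHC genes, 0.49 to 0.68 for mitochondrial mRNAs, 0.10 to 0.19 for oxidative stress, -0.34 to -0.12 for sodium channels and -0.055 to 0.0823 for sympathetic identity.

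For the other 119 named genes, 2965 of 3088 values kept direction and side of the threshold, 83 lost the call, 21 gained it and 19 changed sign, 2 of them with a call as deposited. In the mirror, median-of-ratios scaling turned Relb to -0.0494, mt-Atp6 to -0.0606, Phlda3 to -0.0282, Hspa4l to -0.107 and Txnrd1 to -0.00358. Quantile scaling turned Relb to -0.0977, Phlda3 to -0.013, Hspa8 to 0.385, Hspa4l to -0.0678 and Dbh to -0.0214, and Gfap in the crossed comparison to -0.0191. With a library left out, Scn9a ran from -0.103 to 0.00743 and Gfap from -0.0272 to 0.258 in the crossed comparison. In the mirror, Relb ran from -0.0591 to 0.175, mt-Atp6 from -0.0173 to 0.162, Hspa4l from -0.024 to 0.0412, Scn3b from -0.205 to 0.0384 and Gfap from -0.212 to 0.0031.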
